A study of Mus musculus with 14 samples.

Results

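Apolipoproteins are the proteins that coat the fat-carrying particles of blood, and the liver makes most of them. The genes described here are 9 apolipoprotein genes, Apoa1, Apoa2, Apoa4, Apoa5, Apob, Apoc1, Apoc2, Apoc3 and Apoe, together with Mttp, which encodes the transfer protein that loads fat onto apolipoprotein B. They were chosen as a gene family, by name, and number 10 of the 24411 genes in the count tables. Of the 10 members, 9 passed the filter on low counts and were tested among 9644 genes. The tenth, Apoc2, had 0 to 6 reads per sample in the counts and is described from the deposited FPKM values.

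The study measured liver RNA by sequencing in male littermate mice aged 5 to 7 months, in 4 groups. All mice carried floxed Rbbp5 alleles on both chromosomes. The controls, called WT, had no Alb-Cre, and the knockouts, called LKO, carried 1 copy of Alb-Cre, a Cre recombinase driven by the albumin promoter and so active in hepatocytes, while other liver cells keep Rbbp5. The sample labels spell the knockout RRBP5 and the series text RBBP5; RBBP5 is a shared subunit of the histone methyltransferase complexes that place methyl groups on lysine 4 of histone H3. Each mouse had an intraperitoneal injection in the morning of either tunicamycin, which blocks N-linked glycosylation and so causes stress in the endoplasmic reticulum, at 0.05 mg per kg in 500 microlitres of 3% DMSO in PBS, or the same fluid alone, and the liver was taken 8 hours later. WT mice gave 3 libraries with vehicle and 3 with tunicamycin, and LKO mice gave 4 of each. The counts of LKO vehicle 3 and LKO vehicle 4 agreed nearly within sampling noise (chi-square per degree of freedom of 1.12, against 3.38 to 25.9 in the other 17 pairs within groups) and were summed, which left 13 samples. No label states that the libraries of a group came from separate mice, so p-values measure the spread between these samples.

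Lipoprotein assembly begins in the endoplasmic reticulum, where apolipoprotein B is loaded with triglyceride by the MTTP protein, a partner of protein disulfide isomerase, to give very low density lipoprotein. Apolipoproteins A-I and A-II build high density lipoprotein, which carries cholesterol back to the liver. The C apolipoproteins and apolipoprotein A-V set how fast lipoprotein lipase empties the particles, and apolipoprotein E is the ligand by which remnants are taken up. The members lie partly in clusters: Apoa1, Apoc3, Apoa4 and Apoa5 within 43.3 kb of chromosome 9, and Apoc2, Apoc1 and Apoe within 27.6 kb of chromosome 7, in build mm10.

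Promoter windows of RefSeq (GRCm38.p6, 250 bases before to 50 bases after the annotated start) matched 8 of the 10 members with 12 windows; Apoc1 and Apoc3 had no entry. The windows of the 4 genes whose values are discussed most are shown, 5′ to 3′ on the gene's strand, which is the plus strand for all 4. Capitals mark the letters of the motifs searched on both strands: TATAAA, CAAAGTCCA (preferred by HNF4A), AGGTCA (nuclear receptors), CCACG (part of the endoplasmic reticulum stress element), TTGCNNAA (C/EBP), the HNF1 palindrome and TGTTTAC (forkhead proteins). The forkhead motif was added after the values of Foxa3 had been seen.
Apoa1, chr9:46228380-46228679: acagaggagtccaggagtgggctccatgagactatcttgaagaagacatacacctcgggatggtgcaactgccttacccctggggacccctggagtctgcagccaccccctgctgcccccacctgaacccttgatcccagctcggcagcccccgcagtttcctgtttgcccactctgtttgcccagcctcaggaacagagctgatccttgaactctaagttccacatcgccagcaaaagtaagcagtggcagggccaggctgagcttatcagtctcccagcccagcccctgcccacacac
Apoa2, first window, chr1:171224804-171225103: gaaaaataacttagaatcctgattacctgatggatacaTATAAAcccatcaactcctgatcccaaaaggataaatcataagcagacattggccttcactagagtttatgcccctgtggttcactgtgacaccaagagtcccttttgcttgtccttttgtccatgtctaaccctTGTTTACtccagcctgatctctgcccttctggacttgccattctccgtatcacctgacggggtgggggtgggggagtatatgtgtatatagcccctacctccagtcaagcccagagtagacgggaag
Apoa4, chr9:46240594-46240893: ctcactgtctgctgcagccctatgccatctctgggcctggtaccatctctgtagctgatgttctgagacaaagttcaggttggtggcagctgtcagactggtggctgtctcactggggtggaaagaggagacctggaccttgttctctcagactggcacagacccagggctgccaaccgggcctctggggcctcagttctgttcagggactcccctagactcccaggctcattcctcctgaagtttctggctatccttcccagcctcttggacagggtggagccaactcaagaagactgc
Apoa5, first window, chr9:46268358-46268657: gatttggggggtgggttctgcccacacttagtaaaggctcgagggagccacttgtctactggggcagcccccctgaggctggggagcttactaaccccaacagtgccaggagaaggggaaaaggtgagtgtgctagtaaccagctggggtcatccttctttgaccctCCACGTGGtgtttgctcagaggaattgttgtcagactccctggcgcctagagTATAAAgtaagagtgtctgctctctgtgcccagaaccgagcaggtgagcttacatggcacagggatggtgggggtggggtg
The Apoa1 and Apoa4 windows held none of the 7 motifs. The first Apoa2 window held TATAAA at base -212 and TGTTTAC at base -77 from the start. Its second window, not printed, held AGGTCA on the minus strand at -238. That window also held TTGCNNAA on the minus strand at -164 and on the plus strand at -140. The first Apoa5 window held TATAAA at base -31, and CCACG on the plus strand at -83 overlapping its match on the minus strand at -80. Of all 32851 windows in the table, 13.6% held TATAAA, 0.475% CAAAGTCCA, 16.3% AGGTCA, 32.8% CCACG, 10.8% TTGCNNAA, 0.009% the HNF1 palindrome and 3.65% TGTTTAC, so CCACG is a common match. These are matches of letters and not measured binding.

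Libraries held 6507018 to 13519421 sense-strand reads, of which 72.5% to 75.5% fell on Rn45s, the ribosomal RNA precursor. Rbbp5 lay between 4.07 and 6.41 CPM (counts relative to library size, with library sizes, Rn45s included, scaled by the TMM method) in the 6 WT samples and between 1.90 and 4.15 in the 7 LKO samples, and LKO vehicle 1, at 4.15, lay within the WT range. Reads were counted over the whole gene, floxed part or not. Rbbp5 was not called in either genotype comparison (log2 fold change -0.87 ± 0.26, adjusted p = 0.3301 with vehicle; -0.90 ± 0.25, adjusted p = 0.1053 after tunicamycin). Hspa5, the main chaperone of the endoplasmic reticulum, was 197 to 253 CPM in WT vehicle and 854, 313 and 786 CPM in WT tunicamycin 1, 2 and 3. Ddit3, a stress-induced transcription factor gene, was 26.3, 1.30 and 20.4 CPM in those 3 samples, so WT tunicamycin 2 stood at the vehicle level of 0.641 to 1.89 CPM. Of 5 stress genes, Hspa5, Hsp90b1, Pdia4, Sdf2l1 and Ddit3, all were called higher with tunicamycin in WT, and all but Sdf2l1 were called lower in LKO tunicamycin than in WT tunicamycin. None of these calls held without WT tunicamycin 1 or on log2(FPKM + 1), and each kept its direction there. The 5 calls for tunicamycin in WT were also lost without WT vehicle 1 and without WT vehicle 2. The smallest p was that of Pdia4, a disulfide isomerase gene (log2 fold change 1.63 ± 0.22 in WT, adjusted p = 0.007113). WT tunicamycin 3 stood apart as a whole library, with a chi-square per degree of freedom of 25.9 and 25.8 against WT tunicamycin 1 and 2, which differed from each other by 6.23. In it Hp, an acute-phase gene of hepatocytes, was 453 CPM, within the 357 to 479 CPM of WT vehicle, against 2232 and 2466 CPM in the other WT tunicamycin samples. WT treatment values without WT tunicamycin 3 are given for Apoa2, Apoa4, Apob, Apoc1 and Apoe, and for Foxa3, Aadac, Lipg, Rbm47 and Hp. Those without WT tunicamycin 2 are given for Apoa2, Apoa4, Apoc1 and Apoe. Hepatocyte markers were present, with 7 of 8 tested and a summed level of 18200 to 33400 CPM, while Ass1 was close to 0. The 4 haemoglobin genes had 0 reads in every sample.

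Per transcript length, on the FPKM scale, Apoc1, Apoe and Apoa1 stood highest among the members, and their order turned with the group. In WT vehicle, Apoc1 averaged 1166 FPKM, Apoe 1040 and Apoa1 573, whereas in LKO tunicamycin Apoa1, at 819, stood above Apoc1, at 797, and Apoe, at 748. At the low end Apoa4, at 4.13, lay below Mttp, at 7.67, in WT vehicle, and at 15.9 above Mttp, at 7.23, in LKO tunicamycin. Over all 13 samples, groups mixed, Apoc1 averaged 965 ± 194 FPKM (SD) and Apoe 883 ± 158, with Apoc1 above Apoe in 12 of 13 samples. Apoa1 followed at 697 ± 111, below Apoe in 10 of 13 samples. Apoa2 averaged 382 ± 94.1, Apob 212 ± 21.5 and Apoc3 138 ± 15.1, each above the next in all 13 samples. Apoc2, at 26.3 ± 7.07 FPKM, and Apoa5, at 23.2 ± 3.43, could not be ordered, since Apoc2 was the higher in 8 of 13 samples. Apoa4 averaged 13.4 ± 11.2 FPKM and Mttp 7.32 ± 0.681, with Apoa4 above Mttp in 9 of 13. The range over samples, highest over lowest, was 16.5-fold for Apoa4 and 1.3-fold to 2.43-fold for the other 9.

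No member was called in any of the 5 comparisons at an adjusted p below 0.05 (edgeR quasi-likelihood test, Benjamini-Hochberg over 9644 genes). For tunicamycin against vehicle in WT this is 0 of 9, where 0.363% of all genes were called; the members with an unadjusted p below 0.05 numbered 2, beside 14.8% of all genes, and DESeq2 called 1, Apoa4. For tunicamycin in LKO it is 0 of 9 against 0.0311% of all genes, with 3 members below 0.05 unadjusted beside 12.2% of all genes, and 0 by DESeq2. With vehicle, LKO against WT gave 0 of 9 against 0.0415%, with 1 below 0.05 unadjusted beside 8.15% of all genes, and 0 by DESeq2. After tunicamycin, LKO against WT gave 0 of 9 against 0.861%, with 2 below 0.05 unadjusted beside 15.8% of all genes, and 1, Apoa5, by DESeq2. For the interaction of genotype and treatment it is 0 of 9 against 0%, with 1 below 0.05 unadjusted beside 4.91% of all genes, and 0 by DESeq2. Over all 9644 genes tested, DESeq2 called 154, 47, 20, 138 and 0 in these 5 comparisons, in the order given. limma on log2(FPKM + 1) called 0 of 10 members in each comparison. The 4 group comparisons share samples: each vehicle and each tunicamycin group enters 2 of them.

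**Figure D1:**
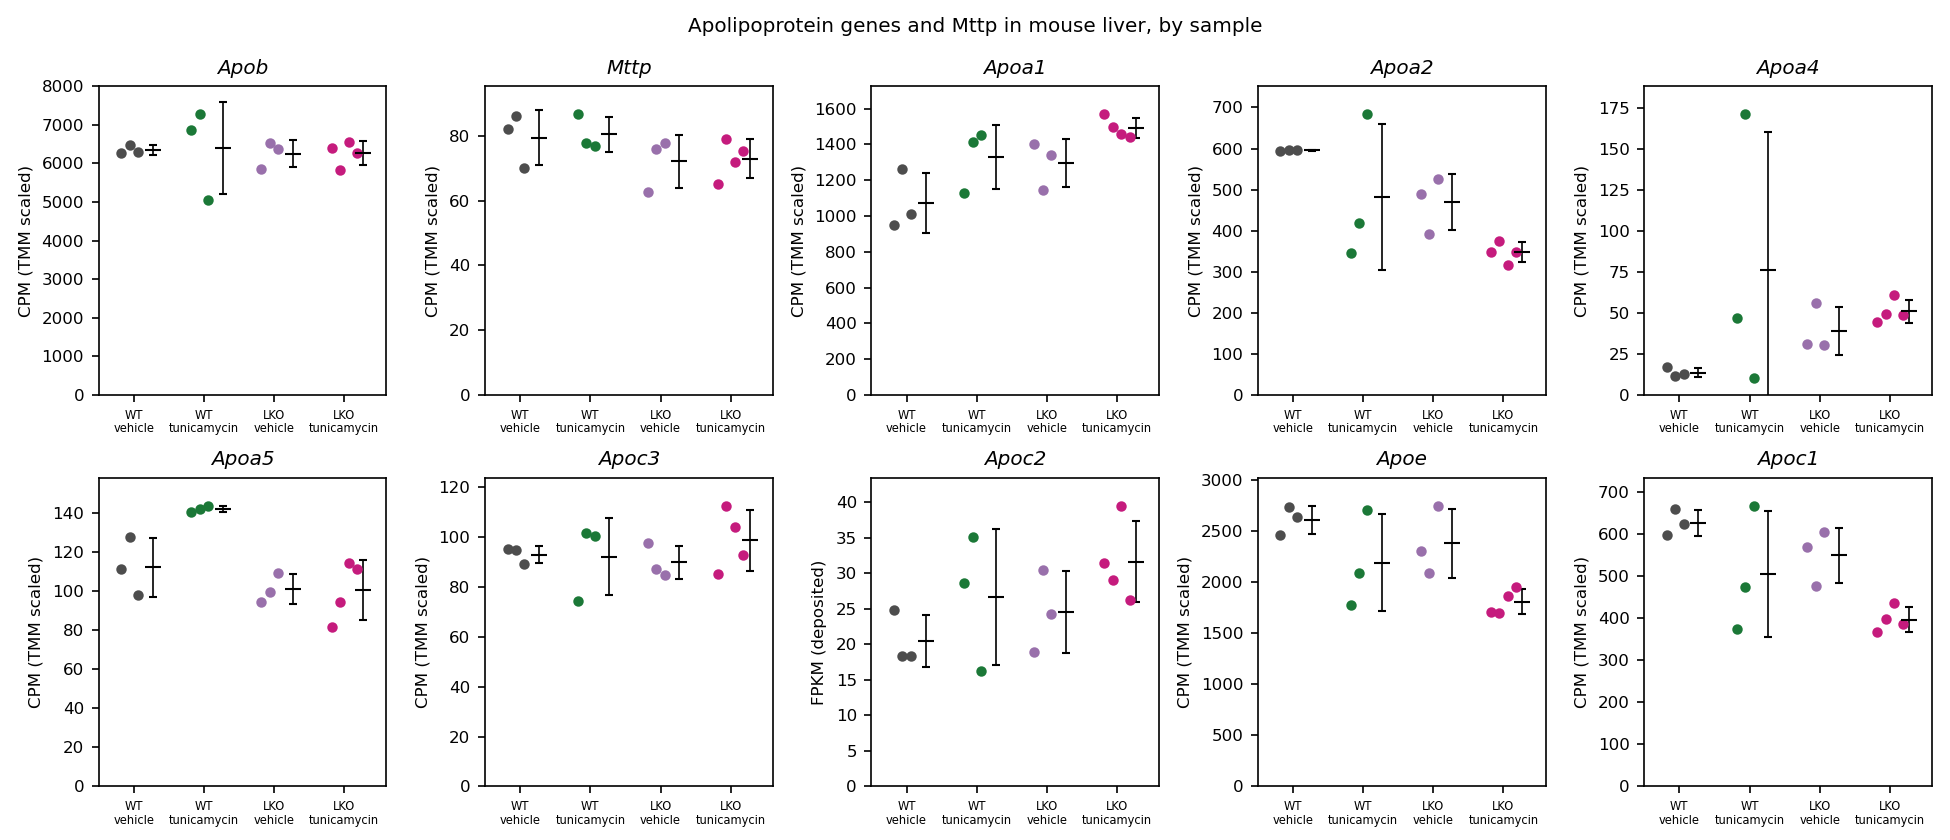
Level of each member by sample. Points are samples (n = 3, 3, 3 and 4; the third LKO vehicle point is the summed library pair), bars are mean and SD, the y axes start at 0 and are CPM scaled by TMM, or deposited FPKM for Apoc2; the SD of Apoa4 in WT tunicamycin runs below 0. Apoa2, Apoe and Apoc1 lie lower in all 4 LKO tunicamycin samples than in the LKO vehicle samples, and Apob and Mttp lie level.

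The assembly pair, Apob and Mttp, overlapped between all 4 groups compared. Apob, which encodes the structural protein of very low and low density lipoprotein, was 6263, 6487 and 6283 CPM in WT vehicle and 6872, 7277 and 5054 CPM in WT tunicamycin. In LKO it was 5862, 6533 and 6371 CPM with vehicle and 6392, 5832, 6565 and 6277 CPM with tunicamycin. Every group overlapped every other, and WT tunicamycin 3 was the lowest sample. The log2 fold change of Apob was no larger in size than 0.03 in any of the 4 group comparisons, and for tunicamycin in WT the 95% interval ran from -0.39 to 0.41. That WT value was 0.16 without WT tunicamycin 3, the low sample, and the largest of the 4 was 0.18 in size with total-count scaling. Mttp was 82.0, 86.2 and 70.1 CPM in WT vehicle, 86.7, 77.8 and 76.9 in WT tunicamycin, 62.8, 75.8 and 77.8 in LKO vehicle and 65.0, 79.1, 72.0 and 75.3 in LKO tunicamycin. The groups of Mttp overlapped in all 4 comparisons. Its largest log2 fold change was -0.14 ± 0.12 (SE; adjusted p = 0.6086), for LKO against WT after tunicamycin. In bulk liver, fewer cells of a type and less RNA per cell cannot be told apart.

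The high density lipoprotein genes Apoa1 and Apoa2 stood at different sides of no change, with neither called. Apoa1, the main protein of high density lipoprotein, was 947, 1261 and 1010 CPM in WT vehicle and 1126, 1415 and 1453 CPM in WT tunicamycin. With LKO the values were 1404, 1146 and 1343 CPM after vehicle and 1569, 1497, 1460 and 1444 CPM with tunicamycin. The 4 LKO tunicamycin samples lay above the 3 LKO vehicle samples, and the WT groups overlapped. Its log2 fold change was 0.20 ± 0.16 for tunicamycin in LKO (adjusted p = 0.6685) and 0.31 ± 0.17 in WT (adjusted p = 0.4141). For LKO against WT it was 0.27 ± 0.17 with vehicle (adjusted p = 0.7054) and 0.16 ± 0.16 after tunicamycin (adjusted p = 0.6663). In FPKM the LKO groups of Apoa1 overlapped. There its LKO tunicamycin samples lay above its WT tunicamycin samples, by 0.34 ± 0.14 on the log2(FPKM + 1) scale (limma adjusted p = 0.2522).

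Apoa2, the second most abundant protein of the same particle, was 594, 597 and 596 CPM in WT vehicle and 346, 418 and 684 CPM in WT tunicamycin. The LKO samples were at 489, 393 and 527 CPM with vehicle and 348, 375, 316 and 348 CPM with tunicamycin. WT tunicamycin 3 was the highest sample of all 13, above the WT vehicle samples, while the other WT tunicamycin samples lay below every WT vehicle sample. All 3 LKO vehicle samples lay below the WT vehicle samples, and all 4 LKO tunicamycin samples below the LKO vehicle samples. The log2 fold change was -0.44 ± 0.19 for tunicamycin in LKO (adjusted p = 0.3688), -0.34 ± 0.21 for LKO against WT with vehicle (adjusted p = 0.6936), -0.48 ± 0.19 for LKO against WT after tunicamycin (adjusted p = 0.2372) and -0.30 ± 0.21 for tunicamycin in WT (adjusted p = 0.5256). Without LKO vehicle 1 the values of Apoa2 were -0.41 for tunicamycin in LKO and -0.38 for LKO against WT with vehicle. The WT treatment value rests on single samples: leaving out WT tunicamycin 3 gave -0.64 ± 0.15, which was called (adjusted p = 0.02095), and leaving out WT tunicamycin 1 gave -0.11. Leaving out WT tunicamycin 2, the sample with Ddit3 at the vehicle level, gave -0.21. For LKO against WT after tunicamycin, leaving out WT tunicamycin 3 gave -0.14.

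The number of Apoa1 reads per Apoa2 read, a ratio within a library that no scaling between libraries touches, was chosen after these values had been seen and is given as a description. It was 1.60, 2.11 and 1.69 in WT vehicle, 3.25, 3.39 and 2.13 in WT tunicamycin, 2.87, 2.92 and 2.55 in LKO vehicle, and 4.50, 3.99, 4.62 and 4.15 in LKO tunicamycin. All 4 LKO tunicamycin samples lay above all 9 others, and the 3 WT vehicle samples lay below all 10 others. On the FPKM scale the ratio was 1.08 to 1.37 in WT vehicle, 1.36 to 2.14 in WT tunicamycin, 1.58 to 1.87 in LKO vehicle and 2.51 to 2.97 in LKO tunicamycin, so there the WT groups overlapped.

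**Figure D2:**
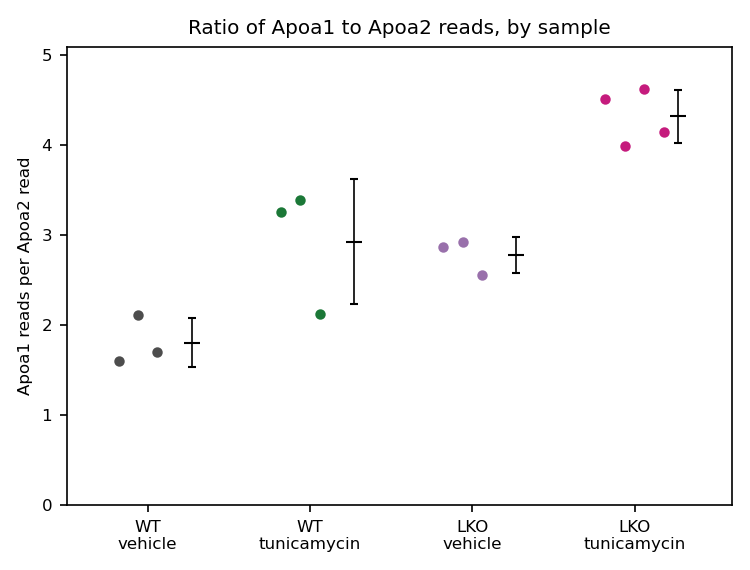
Apoa1 reads per Apoa2 read by sample (y axis, from 0), in the 4 groups (n = 3, 3, 3 and 4), with mean and SD. LKO tunicamycin samples lie from 3.99 to 4.62 and WT vehicle samples from 1.60 to 2.11, and 1 WT tunicamycin sample, at 2.13, stands beside the vehicle samples.

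Apoa4 varied most. It encodes apolipoprotein A-IV, a protein of chylomicrons and high density lipoprotein that the mouse liver also makes. It was 17.0, 11.4 and 12.7 CPM in WT vehicle and 46.8, 171 and 10.3 CPM in WT tunicamycin. The first and second WT tunicamycin samples lay above every WT vehicle sample, and WT tunicamycin 3 below them all. Its LKO values were 30.9, 56.0 and 30.6 CPM with vehicle and 44.5, 49.6, 61.0 and 48.9 CPM with tunicamycin. Every LKO sample lay above every WT vehicle sample, and the LKO groups overlapped.

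For tunicamycin in WT the log2 fold change of Apoa4 was 2.47 ± 0.61 (edgeR adjusted p = 0.08222). This value rests on single samples: leaving out WT tunicamycin 2 gave 1.07, and leaving out WT tunicamycin 3 gave 2.98 ± 0.39 (adjusted p = 0.0006242, called). DESeq2 called it with all samples (adjusted p = 0.03189). For LKO against WT with vehicle the log2 fold change was 1.51 ± 0.60 (adjusted p = 0.5236), and 1.64 without LKO vehicle 1, the sample with Rbbp5 at a WT level. For tunicamycin in LKO it was 0.38 ± 0.52 (adjusted p = 0.8301). The interaction, the LKO response minus the WT response, was -2.09 ± 0.79 (unadjusted p = 0.01694, adjusted p = 0.9352 by edgeR), so a difference between the genotypes' responses was not called. It was -0.68 without WT tunicamycin 2 and -1.03 on the log2(FPKM + 1) scale. For LKO against WT after tunicamycin it was -0.57 ± 0.51 and turned to 0.83 without WT tunicamycin 2, and to 0.29 on the log2(FPKM + 1) scale.

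**Figure D3:**
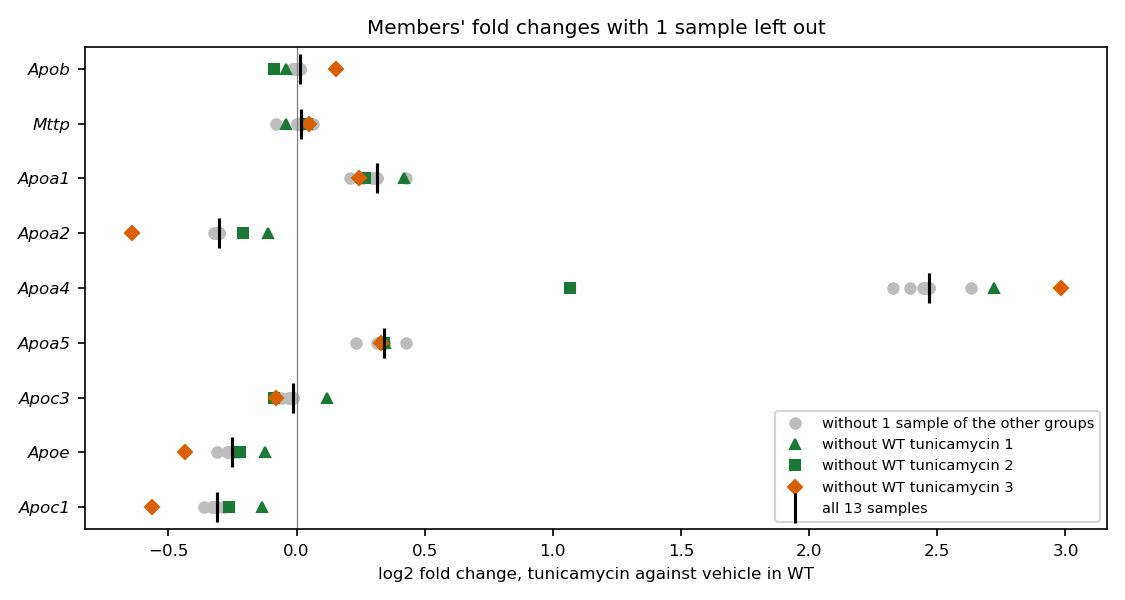
Log2 fold change of the 9 tested members for tunicamycin against vehicle in WT (x axis), with all 13 samples (black bar) and with each sample left out in turn (points; green and orange for WT tunicamycin samples, grey for the other 10). Leaving out WT tunicamycin 3 moves Apoa2 to -0.64, Apoc1 to -0.56 and Apoa4 to 2.98, and leaving out WT tunicamycin 2 moves Apoa4 to 1.07.

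The genes that act on triglyceride clearance are Apoa5, Apoc2 and Apoc3. Apoa5, whose protein promotes triglyceride clearance, was 111, 128 and 98.0 CPM in WT vehicle and 141, 142 and 144 CPM in WT tunicamycin, with every treated sample above every vehicle sample. In LKO it was 94.7, 99.6 and 110 CPM with vehicle and 81.8, 94.7, 115 and 112 CPM with tunicamycin, and these groups overlapped. The log2 fold change was 0.34 ± 0.14 for tunicamycin in WT (adjusted p = 0.2805) and -0.01 ± 0.13 in LKO (adjusted p = 0.9925). The WT value was 0.15 with total-count scaling and 0.23 on the log2(FPKM + 1) scale. All 4 LKO tunicamycin samples lay below all 3 WT tunicamycin samples, with a log2 fold change of -0.50 ± 0.13 (edgeR adjusted p = 0.09091). DESeq2 called this difference (adjusted p = 0.02576), and without each sample in turn the edgeR adjusted p ran from 0.08109 to 0.2076. The interaction was -0.35 ± 0.20 (adjusted p = 0.981), so the responses of the genotypes were not shown to differ. In FPKM the WT treated and vehicle samples of Apoa5 overlapped, as did the LKO and WT tunicamycin samples.

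Apoc3, whose protein inhibits lipoprotein lipase, was 95.1, 94.7 and 89.1 CPM in WT vehicle, 74.4, 102 and 100 in WT tunicamycin, 97.4, 87.3 and 84.6 in LKO vehicle and 85.0, 113, 104 and 92.9 in LKO tunicamycin. The groups overlapped in all 4 comparisons, and the log2 fold change lay between -0.05 and 0.14. On the log2(FPKM + 1) scale its LKO tunicamycin samples lay above its WT tunicamycin samples, by 0.29 ± 0.13 (limma adjusted p = 0.2827). In FPKM its WT tunicamycin samples, at 110 to 130, also lay below its WT vehicle samples, at 135 to 143. The limma difference there was -0.18 ± 0.14 on the log2(FPKM + 1) scale (adjusted p = 0.4805). Its 95% interval for tunicamycin in LKO ran from -0.14 to 0.42.

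Apoc2, the cofactor that lipoprotein lipase needs, could not be read from the counts. Its locus, chr7:19671579-19677941, lies wholly inside that of the annotated read-through gene Apoc4-apoc2, chr7:19671579-19681460, which had 0 reads in every sample, and reads that fit more than 1 gene are left uncounted in such tables. Apoc4, at chr7:19678084-19681460, also lies wholly inside the read-through locus, and had 115 to 418 reads. Whether overlap with the read-through gene set the 0 to 6 reads of Apoc2 was not tested. In the deposited FPKM values Apoc2 was 24.8, 18.3 and 18.4 in WT vehicle, 28.6, 35.1 and 16.3 in WT tunicamycin, 18.9, 30.5 and 24.3 in LKO vehicle, and 31.5, 29.1, 39.6 and 26.3 in LKO tunicamycin. The groups overlapped in all 4 comparisons. On the log2(FPKM + 1) scale the limma difference was 0.31 ± 0.26 for tunicamycin in WT (adjusted p = 0.5033) and 0.36 ± 0.25 in LKO (adjusted p = 0.5484). WT tunicamycin 3 lay below the WT vehicle samples of Apoc2, and the other WT tunicamycin samples lay above them. The WT value ran from 0.09 to 0.62 with 1 sample left out, uncalled in each fit.

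Apoe and Apoc1, neighbours on chromosome 7, had much the same pattern over samples. Apoe was 2467, 2740 and 2636 CPM in WT vehicle and 1778, 2093 and 2711 CPM in WT tunicamycin. In LKO it was 2308, 2088 and 2753 CPM with vehicle and 1714, 1705, 1871 and 1958 CPM with tunicamycin. All 4 LKO tunicamycin samples lay below the LKO vehicle samples, whereas WT tunicamycin 3 lay among the WT vehicle samples and the other WT tunicamycin samples below them. The log2 fold change was -0.40 ± 0.17 for tunicamycin in LKO (adjusted p = 0.3716) and -0.25 ± 0.19 in WT (adjusted p = 0.569). In FPKM all 3 WT tunicamycin samples of Apoe, at 717 to 957, lay below the WT vehicle samples, at 1000 to 1061. On the log2(FPKM + 1) scale the limma difference was -0.39 ± 0.17 in WT (adjusted p = 0.2069) and -0.40 ± 0.16 in LKO (adjusted p = 0.3334).

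Apoc1, which encodes a small exchangeable apolipoprotein, was 597, 659 and 623 CPM in WT vehicle and 375, 473 and 667 CPM in WT tunicamycin. LKO samples stood at 568, 476 and 604 CPM with vehicle and 366, 398, 435 and 387 CPM with tunicamycin. As for Apoe, the LKO groups did not overlap, and WT tunicamycin 3, at 667 CPM, stood just above the WT vehicle samples. The log2 fold change was -0.47 ± 0.17 for tunicamycin in LKO (adjusted p = 0.3073) and -0.31 ± 0.19 in WT (adjusted p = 0.4656). Without WT tunicamycin 3 the WT value was -0.56 ± 0.16 and was called (adjusted p = 0.04031), while that of Apoe was -0.44 ± 0.17 (adjusted p = 0.1453). Without WT tunicamycin 1 these values were -0.14 for Apoc1 and -0.12 for Apoe, and without WT tunicamycin 2 they were -0.26 and -0.22. Macrophages also make Apoe: the summed level of 12 macrophage and Kupffer cell markers was 72.0 to 83.5 CPM in WT vehicle, 76.3 to 101 in WT tunicamycin, 55.1 to 92.1 in LKO vehicle and 82.3 to 160 in LKO tunicamycin, with no marker at 0 in all samples. The part of these cells in the Apoe values was not tested.

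**Figure D4:**
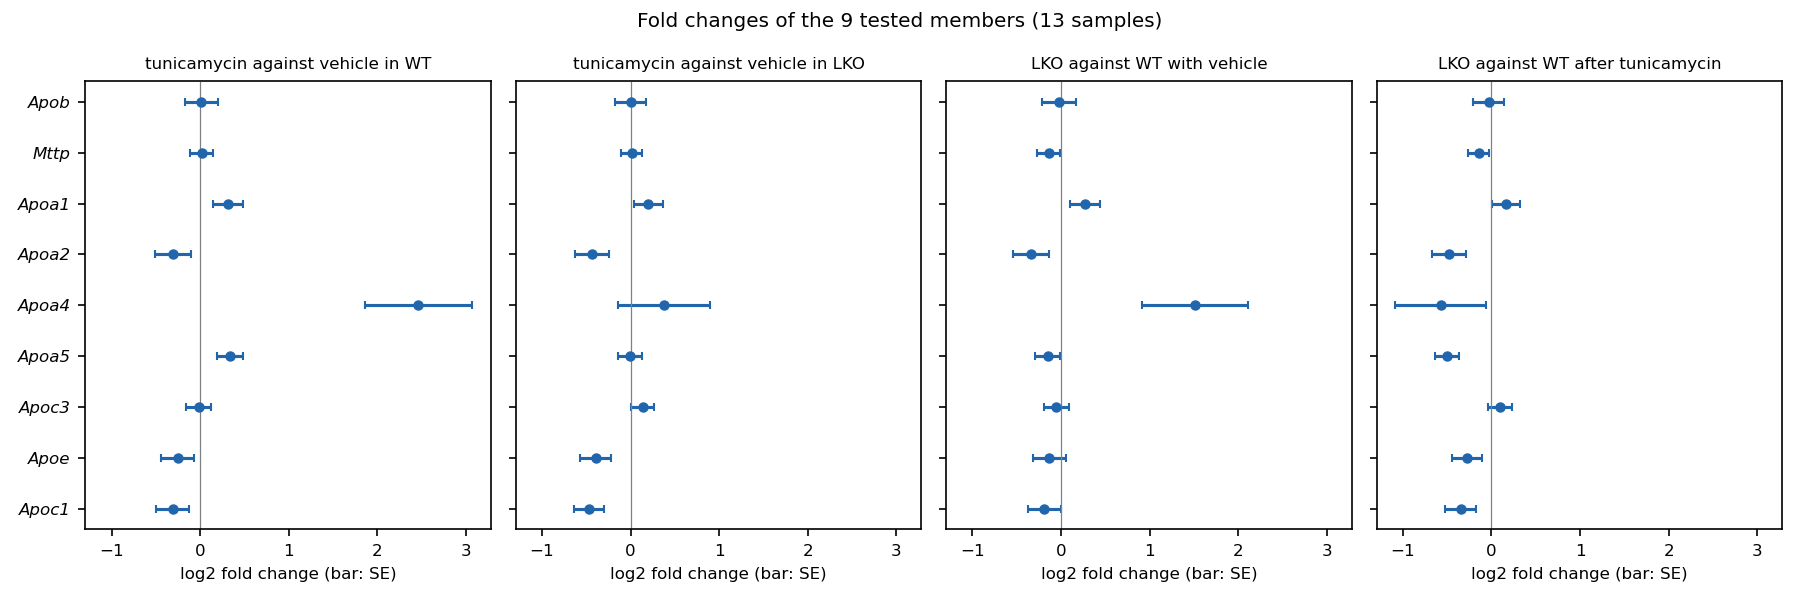
Log2 fold change (x axis) of the 9 tested members in the 4 group comparisons (panels), with the SE of the edgeR fit as bars. Apob, Mttp and Apoc3 lie near 0 in every panel, and Apoa4 has the widest bars, with 2.47 for tunicamycin in WT and 1.51 for LKO against WT with vehicle.

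Counted over the members in CPM, 1 of 9 had treated samples wholly apart from vehicle samples in WT (Apoa5, higher). Of all genes tested, 17.3% were apart. In LKO, 4 of 9 were apart in this way (Apoa1 higher; Apoa2, Apoc1 and Apoe lower), where 11.6% of all genes were. Between LKO and WT with vehicle the count was 2 of 9 (Apoa4 higher, Apoa2 lower), against 15.1% of all genes. Between LKO and WT after tunicamycin it was 1 of 9 (Apoa5, lower), against 12.9%. The median log2 fold change of the 9 members was 0.01, 0.00251, -0.13 and -0.28 in these 4 comparisons, beside 0.01, 0.00454, 0.00483 and -0.01 over all genes tested. Without WT tunicamycin 3, the WT treatment comparison called 3 of 9 members, Apoa2, Apoa4 and Apoc1, where 6.19% of all genes tested were called. The members together took 4.45% to 4.63% of reads outside Rn45s in WT vehicle and 3.94% to 4.14% in WT tunicamycin. In LKO they took 4.23% to 4.61% with vehicle and 3.62% to 4.25% with tunicamycin. These are shares of raw reads, without TMM scaling. With total-count scaling, the median log2 fold change of all genes tested was -0.18 for tunicamycin in WT.

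Among 75 other lipoprotein genes, arranged as other particle proteins, genes of loading and secretion, remodelling enzymes, clearance genes, transcriptional regulators and RNA-editing factors, 72 were tested. edgeR called 0 of 72 for tunicamycin in WT (28 with an unadjusted p below 0.05, beside 14.8% of all genes; 8 called by DESeq2) and 0 in LKO (17 unadjusted, beside 12.2%; 0 by DESeq2). It called 0 for LKO against WT with vehicle (11 unadjusted, beside 8.15%; 0 by DESeq2) and 0 for the interaction (6 unadjusted, beside 4.91%; 0 by DESeq2). For LKO against WT after tunicamycin it called 3 of 72 (0.861% of all genes; 18 unadjusted, beside 15.8%), all lower in LKO and all among the 24 regulators, with a median over the 72 of -0.05 beside -0.01 over all genes. For tunicamycin in WT, DESeq2 called 154 of all 9644 genes tested. limma on log2(FPKM + 1) called 0 of 57 in each comparison, and on log2(FPKM + 0.1) it called Nr0b2 of the 3.

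The 3 regulators were Foxa3, Hnf4a and Nr0b2. Foxa3, a forkhead factor of hepatocytes, was 18.2, 15.4 and 15.7 CPM in WT tunicamycin and 8.26, 8.98, 11.1 and 8.79 CPM in LKO tunicamycin, with no overlap. With vehicle it was 10.7, 10.9 and 10.2 CPM in WT and 10.1, 7.30 and 8.96 CPM in LKO. Its log2 fold change after tunicamycin was -0.82 ± 0.14 (adjusted p = 0.01602).

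Hnf4a, a nuclear receptor that drives many hepatocyte genes, apolipoprotein genes among them, was 183, 173 and 164 CPM in WT tunicamycin and 121, 119, 115 and 122 CPM in LKO tunicamycin. With vehicle it was 154, 156 and 152 CPM in WT and 123, 134 and 161 CPM in LKO, and those groups overlapped. Its log2 fold change after tunicamycin was -0.54 ± 0.12 (adjusted p = 0.04053). The call was lost with total-count scaling (-0.39, adjusted p = 0.1158) and in 9 of 13 fits that left out 1 sample, with values from -0.58 to -0.50.

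Nr0b2, an orphan receptor that represses other nuclear receptors, was low, at 5.09, 3.405 and 2.78 CPM in WT tunicamycin and 1.999, 1.17, 1.32 and 0.869 CPM in LKO tunicamycin, with 8 to 44 reads per sample over all groups. Its log2 fold change was -1.51 ± 0.32 (adjusted p = 0.04053), and the call was lost in 6 of 13 fits that left out 1 sample. For Foxa3 it was lost in 2 of 13, and all 3 kept their direction in each of those fits. For tunicamycin in WT, Foxa3 was 0.64 ± 0.15 (adjusted p = 0.07197), and its interaction of -0.54 ± 0.20 was not called (adjusted p = 0.9352). Without WT tunicamycin 3 the WT value of Foxa3 was 0.67 ± 0.16 and was called (edgeR adjusted p = 0.02441).

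**Figure D5:**
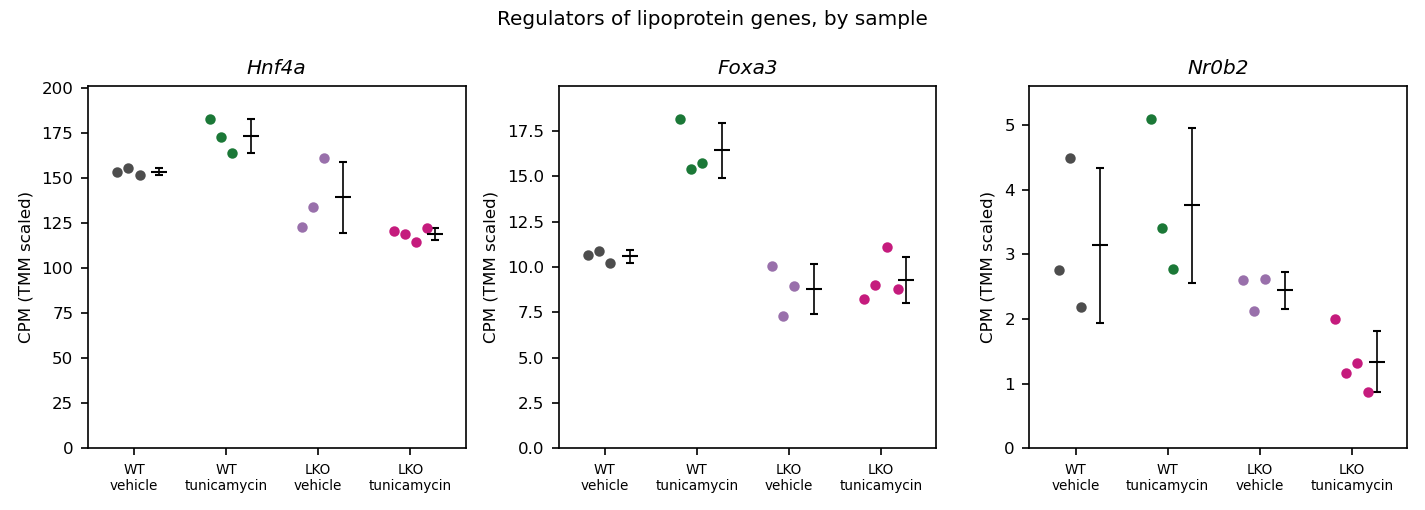
Hnf4a, Foxa3 and Nr0b2 by sample, in CPM scaled by TMM (y axes start at 0), with mean and SD (n = 3, 3, 3 and 4). In each panel the 4 LKO tunicamycin samples lie below the 3 WT tunicamycin samples, for Hnf4a at 115 to 122 against 164 to 183 CPM.

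In the other lists edgeR called no gene with all 13 samples, and the gene with the smallest unadjusted p of each is named. Saa4, a constitutive serum amyloid protein of high density lipoprotein, was -1.27 ± 0.32 for LKO against WT after tunicamycin (adjusted p = 0.07305). Aadac, a lipase of the endoplasmic reticulum, was -0.54 ± 0.14 for tunicamycin in WT (adjusted p = 0.09129). Both values are log2 fold changes by edgeR, as are those that follow. Lipg, endothelial lipase, which hydrolyses phospholipid of high density lipoprotein, was -1.71 ± 0.39 for tunicamycin in LKO (adjusted p = 0.175) and -1.97 ± 0.46 in WT (adjusted p = 0.07417). Its treated and vehicle samples did not overlap in either genotype. Sort1, a sorting receptor that binds apolipoprotein B, was 0.81 ± 0.21 for LKO against WT after tunicamycin (adjusted p = 0.07183). Rbm47, a cofactor of the editing of Apob RNA, was -0.57 ± 0.16 for tunicamycin in WT (adjusted p = 0.1107). DESeq2 called Aadac (adjusted p = 0.01926), Rbm47 (0.04121) and Lipg (0.03392) for tunicamycin in WT, and Sort1 (0.04715) after tunicamycin. For tunicamycin in WT without WT tunicamycin 3, edgeR called Aadac (-0.69 ± 0.13, adjusted p = 0.005168) and Lipg (-2.66 ± 0.53, 0.007066). It also called Rbm47 there (-0.64 ± 0.18, 0.04039), where 6.19% of all genes tested were called. Of the 13 fits with 1 sample left out, 1 called Aadac, 2 Lipg and 1 Rbm47 for tunicamycin in WT.

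By likeness of log2 CPM over the 13 samples, among 1032 genes with a mean of at least 5, Apoe was closest to Apoc1 (Pearson r = 0.968) and Cat (0.962), and Apoc1 to Otc (0.972) and Hpd (0.971). Apoa2 was closest to Mdh1 (0.971) and Paics (0.964). Apoa4 was closest to Habp2 (0.942) and C3 (0.939), and Apoa5 to Pnpla8 (0.895) and Hamp (0.881). Mttp was closest to Mdh2 (0.824) and Creb3l3 (0.779), Apob to Ceacam1 (0.811) and Cgnl1 (0.797), Apoa1 to Ptma (0.751) and Dcn (0.749), and Apoc3 to Slc38a3 (0.704) and Sult1a1 (0.682). These are descriptions: the samples share groups and libraries, and the likest of many genes was taken. After removal of the group means, r was 0.913 for Apoe and Apoc1 and 0.917 for Apoa4 and Habp2.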

How the data were processed

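Liver RNA of 14 libraries was analysed. Counts are STAR's reads per gene, deposited by the authors without normalisation; the column of sense-strand reads was used, which held over 99% of stranded reads. The FPKM table, also deposited by the authors, was matched to libraries by column name. Trimmomatic, STAR, Cufflinks and build mm10 are named in the submitters' processing notes, and their versions and settings are not given in the sources used here. Genes were filtered with filterByExpr, scaled by TMM and tested with edgeR 4.0.16 (R 4.3.3), quasi-likelihood test, 1 mean per group in 1 fit with 9 residual degrees of freedom and 5 contrasts, Benjamini-Hochberg adjustment and a threshold of 0.05. limma 3.58.1 on log2(FPKM + 1), for genes with a mean FPKM of at least 1, served Apoc2, with a mean of libraries 3 and 4 of LKO vehicle. Alternatives were DESeq2 1.42.0, other scalings, filters and columns, FPKM, all 14 libraries, a replicate block and leaving out each sample. The fit was tested on simulated data. Rn45s was kept in library sizes, except in 1 alternative.

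The members and gene lists were chosen with earlier results of these data known. Named are all members, any list gene called in a contrast, the gene of each list with the smallest unadjusted p, the 2 likest genes per member, and Rbbp5, Hspa5 and Ddit3 as checks. Ratios of reads are descriptions, and intervals are of the fit. Each FPKM column correlated best with its own library, in 14 of 14, after removal of gene means.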

Additional observations from a re-analysis of the deposited data

How the results depend on the processing

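The number of members called, 0 in each comparison, became 1 for tunicamycin in WT with DESeq2 and with no filter on low counts (Apoa4 in both), 1 for LKO against WT with vehicle with no filter (Apoa4), and 1 for LKO against WT after tunicamycin with DESeq2 (Apoa5); leaving out 1 sample gave 0 to 3 for tunicamycin in WT, the 3 being Apoa2, Apoa4 and Apoc1 without WT tunicamycin 3. Of the other lipoprotein genes, tunicamycin in WT called 4 with total-count scaling, 8 with DESeq2, 7 with no filter and 0 to 18 with 1 sample left out, the 18 without WT tunicamycin 3. Calls over all genes rose too: the edgeR fit of all 13 samples called 35 of 9644 for tunicamycin in WT. The count was 148 with total-count scaling, 154 with DESeq2, 289 of 16251 with no filter and 615 of 9941 without WT tunicamycin 3. For LKO against WT with vehicle it was 4 of 9644, and 84 of 16251 with no filter. Tunicamycin in LKO called 2 with no filter and 0 to 2 with 1 sample left out. Over all genes it called 3 of 9644, and 153 of 16251 with no filter. LKO against WT after tunicamycin called 5 with DESeq2, 8 with no filter, 0, 1 and 0 on log2(FPKM + 1), log2(FPKM + 0.1) and log2(FPKM + 1) with no filter, and 0 to 4 with 1 sample left out, being 0 without WT tunicamycin 1 or without LKO tunicamycin 4. Over all genes this comparison called 83 of 9644, 138 with DESeq2 and 261 of 16251 with no filter. In the 3 FPKM settings it called 39, 39 and 7 of all genes. The causes were not tested. Apoa4 for LKO against WT after tunicamycin reversed to 0.29, 0.38 and 0.29 in those 3 FPKM settings and ran from -1.09 to 0.83 with 1 sample left out. Apoa5 for tunicamycin in LKO ran from -0.075 to 0.080, and Apoc2 for LKO against WT after tunicamycin from -0.019 to 0.51 on the log2(FPKM + 1) scale; Apob, Apoc3 and Mttp were followed by the size of their largest change, uncalled in each setting: 0.03 for Apob, and 0.02 to 0.18 over the alternatives, 0.14 for Apoc3, and 0.08 to 0.29, and 0.14 for Mttp, and 0.09 to 0.23. With total-count scaling the median log2 fold change of all genes was -0.18 for tunicamycin in WT (0.01 with TMM) and 0.14 for LKO against WT after tunicamycin (-0.01 with TMM), where calls went from 30 higher of 83 to 142 higher of 164. Replicate numbers are given in the labels. Deviations of same-numbered samples from different groups correlated at -0.11 to 0.14 in 19 pairs, and those of other samples at -0.21 to 0.20 in 54 pairs. With so few samples per group, these correlations cannot show whether the numbers mark a pairing or a batch. A replicate block on 14 libraries called 0 members in each comparison. Of the other lipoprotein genes, it called 2 for tunicamycin in WT, 2 in LKO and 2 for LKO against WT after tunicamycin, where it lost Hnf4a (adjusted p = 0.053). Over all genes tested, the block called 69 for tunicamycin in WT, 72 in LKO and 90 for LKO against WT after tunicamycin. On the same 14 libraries without the block these counts were 56, 5 and 115. The depth outside Rn45s, 1704479 to 3551398 reads, limits genes as low as Nr0b2. No member's sample stood apart in LKO tunicamycin, the group of 4, by Dixon's gap ratio (0 of 10 tested). The groups of 3, WT tunicamycin among them, were not tested in this way.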

Other observations

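The genes beside the member clusters are not lipoprotein genes and were looked at for the same comparisons. Of 7 listed neighbours of the chromosome 9 cluster, all tested, and 8 of the chromosome 7 cluster, 5 tested, edgeR called 0 in any comparison; for tunicamycin in WT, 3 of 7 and 2 of 5 had an unadjusted p below 0.05, beside 14.8% of all genes tested. Sik3, a kinase gene beside Apoa1, was 19.0, 19.6 and 17.8 CPM in WT vehicle and 13.8, 14.8 and 13.9 CPM in WT tunicamycin, without overlap (log2 fold change -0.41 ± 0.12, adjusted p = 0.1255 by edgeR). Bcl3, a co-regulator of NF-kB near Apoe, was 6.88, 6.16 and 4.79 CPM in WT tunicamycin and 3.46, 3.25, 2.45 and 0.869 CPM in LKO tunicamycin, also without overlap (-1.28 ± 0.31, adjusted p = 0.06309 by edgeR and 0.01978 by DESeq2).

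With all 13 samples, no marker of hepatocytes, Kupffer cells, sinusoidal endothelium, stellate cells, bile duct cells or lymphocytes was called by edgeR in any comparison. The gene of each list with the smallest unadjusted p follows. Among hepatocyte markers it was Hp, at 2.08 ± 0.45 on the log2 scale for tunicamycin in WT (adjusted p = 0.05119 by edgeR and 0.01119 by DESeq2). The 7 tested hepatocyte markers went both ways in that comparison, 4 above 0 and 3 below, from -0.51 to 2.08. Without WT tunicamycin 3, Hp was 2.535 ± 0.28 and was called (edgeR adjusted p = 0.0001281). Among Kupffer cell markers it was Marco, at 1.66 ± 0.46 for tunicamycin in LKO (adjusted p = 0.2149). There 7 of 12 Kupffer cell markers had an unadjusted p below 0.05, beside 12.2% of all genes. The number was 0 for tunicamycin in WT, 0 for LKO against WT with vehicle and 2 for LKO against WT after tunicamycin. Of all genes, 14.8%, 8.15% and 15.8% were below 0.05 in those comparisons. The summed stellate cell markers were 71.5 to 116 CPM in WT vehicle, 98.7 to 133 in WT tunicamycin, 118 to 162 in LKO vehicle and 110 to 171 in LKO tunicamycin, with Col1a1 at 2.66 ± 0.52 on the log2 scale (adjusted p = 0.07944 by edgeR and 0.02567 by DESeq2) for LKO against WT with vehicle. Spp1, the bile duct list's most abundant gene, was 2.23 ± 0.59 for LKO against WT with vehicle (adjusted p = 0.2933), while Krt19, Krt7 and Epcam were too low to test. Sinusoidal endothelial markers summed to 60.1 to 88.0 CPM over all groups, with Clec4g at -0.49 ± 0.22 for LKO against WT with vehicle (adjusted p = 0.5829). For LKO against WT with vehicle, 3 of these 7 markers lay above 0 and 4 below, from -0.49 to 0.74. Of 6 lymphocyte markers, 1, Ptprc, was tested, at 0.35 ± 0.20 in the same comparison (adjusted p = 0.6761). The part of these cells in the members' values was not tested.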
